A study of Mus musculus with 6 samples.

Results

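The regions described here are stretches of open chromatin that had an ATAC-seq peak in all 3 SE/SE retinal libraries and in only 1 or 2 of the 3 wild-type libraries. ATAC-seq marks open DNA by letting the Tn5 transposase cut it and insert sequencing adapters. SE/SE retinas came from C57BL/6 mouse embryos carrying a mutated shadow enhancer of Atoh7 on both alleles, and wild-type retinas came from C57BL/6 embryos labelled Atoh7 +/+, all at E14.5 (embryonic day). The pair of retinas of 1 animal went into each library, with 3 libraries per genotype. How the enhancer was altered is not described in the sources used here, and all cells of the retina were measured together. Peaks of the 6 library lists on chromosomes 1 to 19 were merged wherever they shared 1 bp or more, which gave 45562 regions. Of these, 7339 met the rule, or 16.1% of all regions. They are called members below. The members were selected on the measured presence of peaks in these same 6 libraries, so their patterns are given as a description with no test.

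Atoh7 is a gene of the basic helix-loop-helix family that retinal progenitors switch on as they leave the cell cycle, and without it few retinal ganglion cells form. A shadow enhancer is a further element that drives its gene in a pattern overlapping that of the primary enhancer. Most regulatory elements of developmental genes lie away from promoters and are open in some cell types only, while promoters of widely used genes are open in nearly every cell.

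Printed here are 8 promoter windows that members overlapped in whole or in part, so a marked match can lie outside the member. Each window runs from 250 bases before to 50 bases after a RefSeq start site in GRCm38.p6, 5′ to 3′ on the strand of the gene. Capitals mark matches, on either strand, to any of the searched motifs, of which these windows hold the GC box GGGCGG, the ETS core CCGGAAG, the CCAAT box CCAAT, the E-boxes CAGCTG and CAGATG, the Meis core TGACAG, the homeodomain core TAATTA and the CTCF core AGGGGGC. Matches can overlap one another. Sox21 and Hmx3 encode transcription factors of neural and sensory precursors, and their members had the highest mean percentiles over the SE/SE lists. Sema6d encodes a semaphorin of axon guidance and led the members found in wild type 2 alone. Meox2, a mesodermal homeobox gene, and Gabbr2, which encodes a GABA-B receptor subunit, were among the 20 genes with the most members. Elavl4, a neuronal RNA-binding protein gene, and Slc17a6, the vesicular glutamate transporter gene of retinal ganglion cells, stand for the ganglion cell list, and Lhx1 is a LIM-homeodomain gene of horizontal cells.
Sox21, chr14:118236981-118237280, minus strand: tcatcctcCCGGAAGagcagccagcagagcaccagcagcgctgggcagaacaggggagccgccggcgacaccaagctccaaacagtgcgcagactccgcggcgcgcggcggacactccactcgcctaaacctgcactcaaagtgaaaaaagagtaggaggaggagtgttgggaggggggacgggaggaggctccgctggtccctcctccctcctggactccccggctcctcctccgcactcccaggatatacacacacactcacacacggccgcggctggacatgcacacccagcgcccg
Hmx3, chr7:131542713-131543012, plus strand: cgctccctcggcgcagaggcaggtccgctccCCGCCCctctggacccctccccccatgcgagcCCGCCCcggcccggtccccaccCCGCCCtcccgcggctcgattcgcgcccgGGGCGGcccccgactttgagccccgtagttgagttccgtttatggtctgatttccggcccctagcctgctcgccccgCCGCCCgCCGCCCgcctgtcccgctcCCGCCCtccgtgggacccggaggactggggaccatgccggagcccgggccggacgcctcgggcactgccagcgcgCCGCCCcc
Sema6d, chr2:124089719-124090018, plus strand: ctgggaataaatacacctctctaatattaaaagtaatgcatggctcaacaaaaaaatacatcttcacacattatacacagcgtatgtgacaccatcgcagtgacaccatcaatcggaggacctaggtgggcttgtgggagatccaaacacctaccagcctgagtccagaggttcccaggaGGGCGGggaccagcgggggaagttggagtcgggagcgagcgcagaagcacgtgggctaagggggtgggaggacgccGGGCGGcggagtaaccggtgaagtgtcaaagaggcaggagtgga
Meox2, chr12:37108290-37108589, plus strand: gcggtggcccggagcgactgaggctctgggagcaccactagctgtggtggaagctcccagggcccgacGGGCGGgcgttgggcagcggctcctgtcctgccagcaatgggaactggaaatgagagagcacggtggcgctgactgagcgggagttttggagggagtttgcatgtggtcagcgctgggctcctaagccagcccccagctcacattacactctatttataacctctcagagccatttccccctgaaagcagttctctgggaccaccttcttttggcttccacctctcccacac
Gabbr2, chr4:46991665-46991964, minus strand: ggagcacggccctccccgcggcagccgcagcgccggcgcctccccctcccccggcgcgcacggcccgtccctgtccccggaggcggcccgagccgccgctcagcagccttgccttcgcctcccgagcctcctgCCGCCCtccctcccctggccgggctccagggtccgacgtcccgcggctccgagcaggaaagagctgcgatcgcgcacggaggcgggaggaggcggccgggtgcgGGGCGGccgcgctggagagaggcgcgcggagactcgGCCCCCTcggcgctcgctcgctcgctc
Elavl4, chr4:110287478-110287777, minus strand: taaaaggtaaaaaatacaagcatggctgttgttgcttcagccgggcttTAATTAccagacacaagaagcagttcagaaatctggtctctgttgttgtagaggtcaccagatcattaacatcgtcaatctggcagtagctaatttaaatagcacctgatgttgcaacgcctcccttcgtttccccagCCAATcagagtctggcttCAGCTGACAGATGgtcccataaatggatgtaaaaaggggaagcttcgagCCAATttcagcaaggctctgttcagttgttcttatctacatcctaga
Slc17a6, chr7:51621580-51621879, plus strand: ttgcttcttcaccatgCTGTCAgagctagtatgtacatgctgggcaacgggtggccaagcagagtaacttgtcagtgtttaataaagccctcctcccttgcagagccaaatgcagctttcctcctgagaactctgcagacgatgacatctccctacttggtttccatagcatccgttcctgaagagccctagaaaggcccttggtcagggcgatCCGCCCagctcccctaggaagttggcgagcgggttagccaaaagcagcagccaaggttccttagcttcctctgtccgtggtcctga
Lhx1, chr11:84525485-84525784, minus strand: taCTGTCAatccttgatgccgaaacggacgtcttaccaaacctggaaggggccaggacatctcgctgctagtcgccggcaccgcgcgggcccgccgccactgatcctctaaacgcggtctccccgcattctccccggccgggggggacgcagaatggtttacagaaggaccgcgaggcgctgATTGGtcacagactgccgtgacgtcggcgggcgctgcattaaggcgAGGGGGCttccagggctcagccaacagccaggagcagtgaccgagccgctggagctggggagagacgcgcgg
The Sox21, Meox2 and Gabbr2 windows lay wholly inside a member. The Elavl4 window shared 288 of its 300 bp with one, the Slc17a6 window 246 bp, the Lhx1 window 209 bp, the Hmx3 window 171 bp and the Sema6d window 149 bp. As printed, the Elavl4 and Hmx3 members covered the first bases of their windows. The Slc17a6, Lhx1 and Sema6d members covered the last bases. The marked CTGTCA of the Slc17a6 and Lhx1 windows and the GC boxes beyond base 171 of the Hmx3 window thus lay outside the members. The Elavl4 start site is not at the outer end of that gene.

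Among the wild-type libraries, the members were mostly those that wild type 3 lacked. Wild type 3 had no peak in 6528 members (88.9%), wild type 1 in 3777 (51.5%) and wild type 2 in 857 (11.7%). By pattern, 3095 members (42.2%) had a peak in wild type 2 alone and 2807 (38.2%) in wild types 1 and 2. Another 626 (8.53%) had one in wild type 1 alone, 580 (7.90%) in wild types 2 and 3, 129 (1.76%) in wild types 1 and 3, and 102 (1.39%) in wild type 3 alone. The first 2 of these patterns thus held most members. In all, 3823 members had a peak in 1 wild-type library and 3516 in 2.

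**Figure D1:**
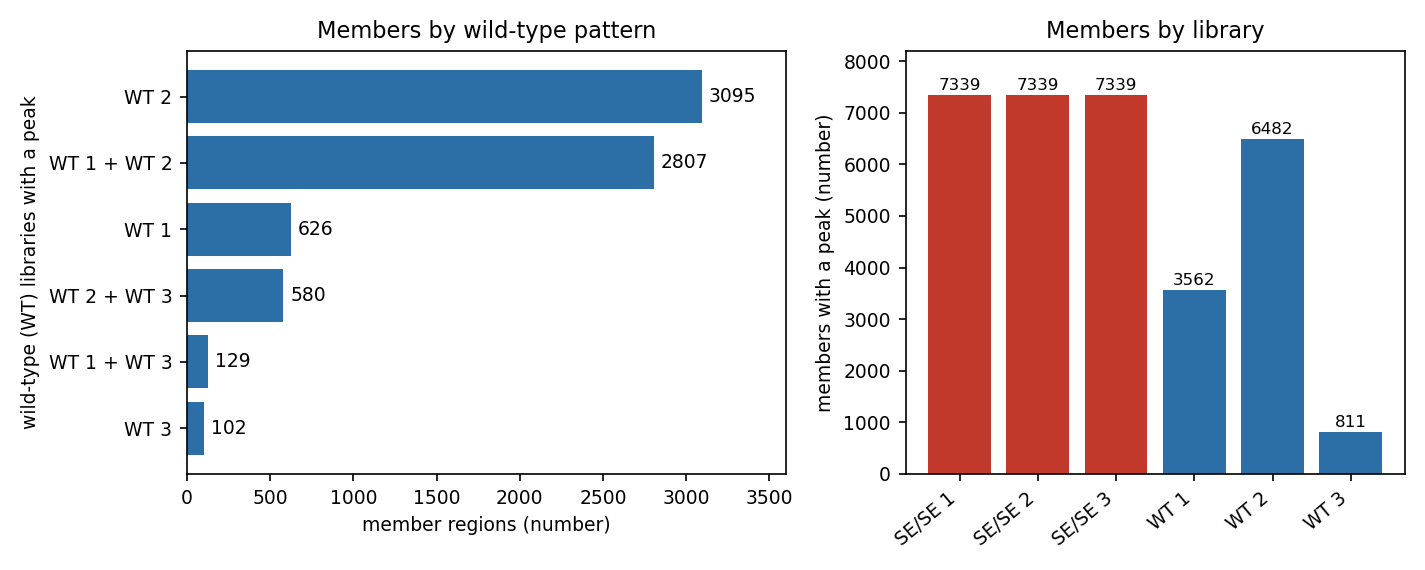
Left, the number of members (regions with a peak in 3 SE/SE and in 1 or 2 wild-type libraries) for each combination of wild-type (WT) libraries with a peak. Right, the number of the 7339 members with a peak in each library, which is all of them in the SE/SE libraries by the rule, and 3562, 6482 and 811 in wild type 1, 2 and 3.

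The lists differed in length in the same order. The SE/SE lists held 39115, 42722 and 44242 peaks and the wild-type lists 31340, 34797 and 27873, so that wild type 2, the wild-type library with most members, had the longest wild-type list and wild type 3 the shortest. Members made up 20.2%, 18.0% and 17.3% of the regions with a peak in SE/SE 1, 2 and 3. They made up 12.8% of those in wild type 1, 20.5% in wild type 2 and 3.29% in wild type 3. No read depth is known for these lists. The SE/SE libraries had 15, 16 and 16 PCR cycles and the wild-type libraries 17, 18 and 19, with no label tying a number to a library, so that amplification and genotype cannot be told apart. Nor can a peak that is absent because fewer cells have the region open be told apart from one that is absent because it is less open in each cell.

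The opposite pattern was rare. Regions that every wild-type library had and that only 1 or 2 SE/SE libraries shared numbered 50, or 0.110% of all regions. SE/SE 1 had no peak in 19 of them, SE/SE 2 in 17 and SE/SE 3 in 28. With 27873 peaks taken from each library by signal value, 2186 regions (7.17% of 30492) met the rule for members and 459 the opposite rule. At equal list length 671 members had a peak in wild types 1 and 2, 465 in wild types 2 and 3, 404 in wild type 2 alone, 261 in wild types 1 and 3, 234 in wild type 1 alone and 151 in wild type 3 alone. Wild type 3 then lacked 1309 of them, wild type 1 lacked 1020 and wild type 2 lacked 646. Of these 2186, 1578 overlapped a member and 608 overlapped a region with a peak in 6 of 6 libraries. Seen from the 7339 members, 1578 (21.5%) overlapped a member at equal list length, and 1805 (24.6%) had no region left there. The count of members and the size of the wild-type library differences thus changed with list length, while the order of the libraries stayed the same.

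Members had low-ranking peaks in every list. The rank used is the percentile of the authors' signal value within its own list, so that 50 is the middle of that list. The rule used the presence of these peaks, so the percentiles describe the members and test nothing. The median percentile of members was 25.9, 33.2 and 35.4 in SE/SE 1, 2 and 3, with a mean of 31.5 ± 4.98 (SD, n = 3). In the wild-type libraries with a peak it was 12.9 in wild type 1, 17.6 in wild type 2 and 7.35 in wild type 3. Percentiles from lists of different lengths are not compared between libraries, but within each list regions with a peak in 6 of 6 libraries stood far higher. Those had medians of 68.6, 71.3 and 72.3 in the SE/SE lists and 60.7, 64.7 and 55.7 in the wild-type lists. Signal values gave the same order, with member medians of 82.7, 116 and 126 in the SE/SE lists and 40.7, 52.8 and 30.9 in the wild-type lists, where the lowest value kept in a list was 20.

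Percentiles in the SE/SE lists were higher for members found in more wild-type libraries. Members in 2 wild-type libraries had a mean of the SE/SE medians of 36.3 ± 4.42, and members in 1 had 27.1 ± 5.09 (SD, n = 3 libraries). Just outside the rule, the 3744 regions in 3 SE/SE and 0 wild-type libraries had 19.1 ± 5.12, and the 23702 regions in 6 of 6 libraries 70.8 ± 1.93. The order held in each SE/SE list, with medians of 31.3, 37.9 and 39.7 for members in 2 wild-type libraries and 21.4, 28.7 and 31.2 for members in 1. In wild type 2, members shared with another wild-type library had a median percentile of 21.9 and members found in it alone 13.4.

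**Figure D2:**
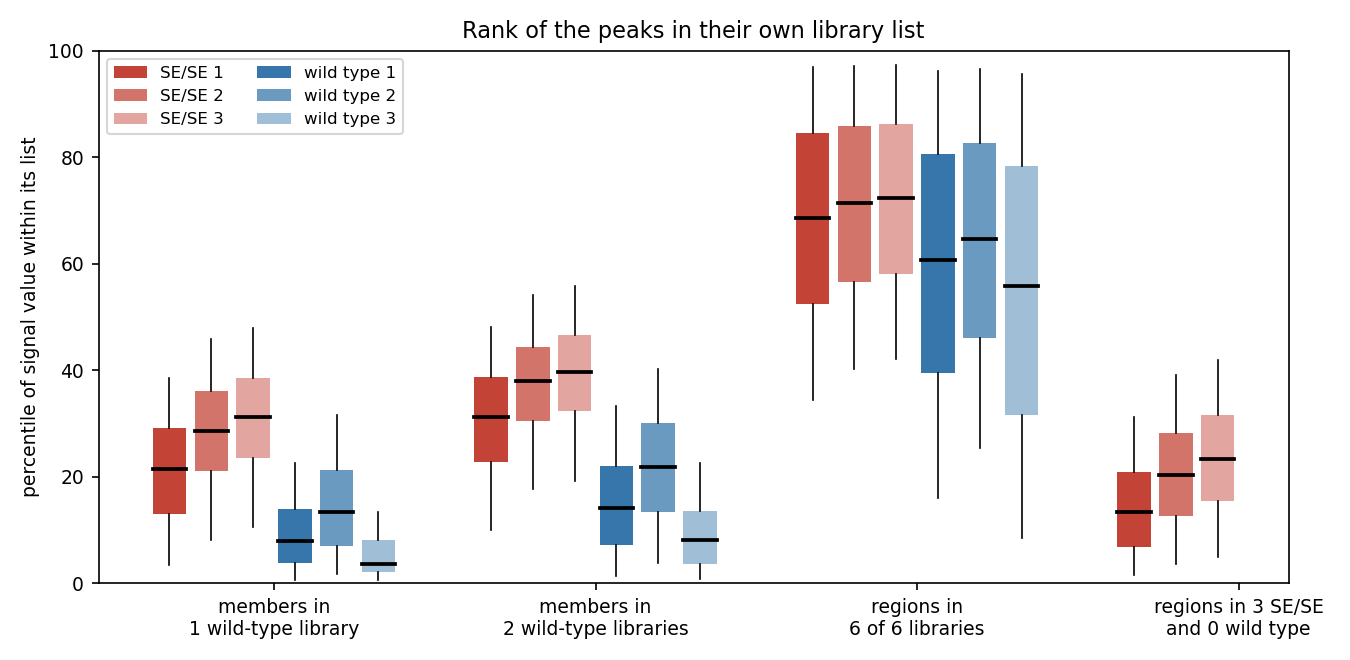
Percentile of the signal value within its own library list, for members in 1 or 2 wild-type libraries and for the classes just outside the rule. Boxes span the middle 50% of regions, lines inside them are medians and thin lines reach from the 5th to the 95th percentile of regions. By their medians, the members in every list sit below the regions found in 6 of 6 libraries, and in the SE/SE lists above the regions found in no wild-type library.

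Few members reached the upper part of a list. Above the list's median lay 122, 464 and 661 members in SE/SE 1, 2 and 3, and 1, 17 and 0 members in wild type 1, 2 and 3. Averaged over the SE/SE lists, 282 members (3.84%) had a percentile above 50, and 256 of these (90.8%) were found in 2 wild-type libraries. Percentiles under 25 held 47.2%, 25.4% and 20.3% of the members in SE/SE 1, 2 and 3. In the wild-type libraries they held 84.8% of the members present in wild type 1, 71.5% in wild type 2 and 96.8% in wild type 3.

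Where a wild-type library lacked a member, the median distance to its nearest peak was 13.9 kb in wild type 1, 9.89 kb in wild type 2 and 18.8 kb in wild type 3. The rule excludes overlap here. The median distance from any region to the nearest other region in 6 of 6 libraries was 18.0 kb. That value starts from other regions and ends at other targets than the distances above, so it is no baseline for them. A peak of the lacking library lay within 500 bp for 11.0%, 13.5% and 8.88% of these members. The authors also deposited 1 joint list for each genotype, with 120772 SE/SE and 104991 wild-type peaks. Nearly every region of any class overlapped a peak in both, 45559 of the 45562 regions in the joint SE/SE list and all 45562 in the joint wild-type list, and so did all 7339 members. Each region took the percentile of the strongest joint peak that overlapped it. For members these joint peaks had a median width of 628 bp (SE/SE) and 551 bp (wild type), against 217 bp for the members. A joint peak can thus reach beyond a member and span its neighbours, so its rank is not the member's own. The members' median percentile was 78.5 in the joint SE/SE list and 74.8 in the joint wild-type list. These were below the 84.5 and 81.8 of all regions and the 90.9 and 89.5 of regions in 6 of 6 libraries.

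Members lay mostly away from genes' ends. Within 1 kb of an end of a protein-coding gene lay 954 members, or 13.0%, against 47.7% of regions in 6 of 6 libraries, 10.6% of those in 3 SE/SE and 0 wild-type libraries, and 30.7% of all regions. Inside genes but farther from an end were 3246 (44.2%), and outside genes 3139 (42.8%). No protein-coding gene end lay within 100 kb of 1435 members (19.6%). Their median width was 217 bp, against 603 bp in regions of 6 of 6 libraries. Location and rank went together little: the median percentile of members near gene ends, inside genes and outside genes was 24.9, 25.8 and 26.1 in SE/SE 1. It was 34.2, 33.3 and 32.8 in SE/SE 2 and 35.0, 35.6 and 35.3 in SE/SE 3.

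By start sites the picture was close. Of the 7094 members for which start sites were at hand, 1008 (14.2%) lay within 1 kb of one and 519 (7.32%) overlapped a promoter window, against 42.2% of regions in 6 of 6 libraries. Members came from every chromosome, from 14.3% of the regions of chromosome 5 to 17.6% of those of chromosome 1. The median distance to the nearest region found in 6 of 6 libraries was 18.6 kb for members and 18.0 kb for all regions.

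Where members did overlap promoter windows, these windows were less rich in GC boxes and ETS cores than those of regions in 6 of 6 libraries. Members overlapped 591 windows of 540 genes, with a median GC content of 58.7% and a median of 14 CpG dinucleotides. The 12725 windows of regions in 6 of 6 libraries had 63.0% and 23, and all 31396 windows 53.0% and 7. The GC box GGGCGG, a site class of Sp factors, stood in 52.3% of the member windows, in 69.7% of the windows of regions in 6 of 6 libraries and in 36.0% of all windows. The ETS core CCGGAAG stood in 5.92%, 18.3% and 9.0% of them. The E-box CAGCTG stood in 21.8%, 14.7% and 16.3%, and the E-box CAGATG in 15.1%, 10.4% and 17.2%. The homeodomain core TAATTA stood in 4.74%, 1.92% and 5.27%. The CCAAT box stood in 31.1%, 37.8% and 37.3%, the Meis core TGACAG in 17.3%, 15.6% and 19.0%, and the CTCF core AGGGGGC in 16.9%, 18.1% and 10.7%. The 165 windows of regions in 3 SE/SE and 0 wild-type libraries had a median GC content of 57.3% and a median of 12 CpG. The GC box stood in 43.6% of these, the ETS core in 1.82%, CAGCTG in 24.2% and CAGATG in 15.2%. TAATTA stood in 5.45%, the CCAAT box in 35.2%, TGACAG in 17.6% and the CTCF core in 12.7%. GC-box and ETS shares below those of regions in 6 of 6 libraries were thus not particular to members. Beside all windows, the GC-box share was higher in both classes and the ETS share lower. Both strands were searched, and a match is a description of letters only. Base composition differs between the classes as given above, and its part in these shares was not tested.

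Assigned to the nearest gene end within 100 kb, 5904 members belonged to 4221 protein-coding genes, or 28.7% of the 14714 genes with any region. Most of these genes, 3079, had 1 member, while 369 had 3 or more and 37 had 5 or more. At 534 genes, or 3.63% of those with any region, every assigned region was a member. These include genes with a single region, such as Gja3. Genes with many members tended to have many regions in all, so most counts are given beside the gene's regions.

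Meis2 (gene ID 17536), a TALE-homeodomain transcription factor gene expressed in retinal progenitors, had the most members, 10 of its 26 regions. Another 7 of its regions were in 6 of 6 libraries, and 3 had a peak in all 3 SE/SE libraries and in no wild-type library. The rest had a peak in some of the SE/SE libraries and in no wild-type library. Wild type 2 had a peak in all 10 members, wild type 1 in 3 and wild type 3 in 1. The members gathered around the 5′ end of the gene: 7 lay between 8422 bp before and 7009 bp after it, interleaved with regions present in 6 of 6 libraries. A pair stood 47345 and 47947 bp inside the gene, and 1 lay beyond its other end. The highest, on chromosome 2 at 116062989 to 116063514, inside the gene, had signal values of 130, 187 and 242 in SE/SE 1, 2 and 3 and 64.5 in wild type 2, at percentiles 35.9, 44.0, 50.3 and 21.9. The lowest by mean percentile, at 116020029 to 116020192, had percentiles of 18.3, 3.94 and 17.5 in the SE/SE lists and 16.7 in wild type 2. Over its members and the SE/SE lists, percentiles ran from 3.43 to 50.3.

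**Figure D3:**
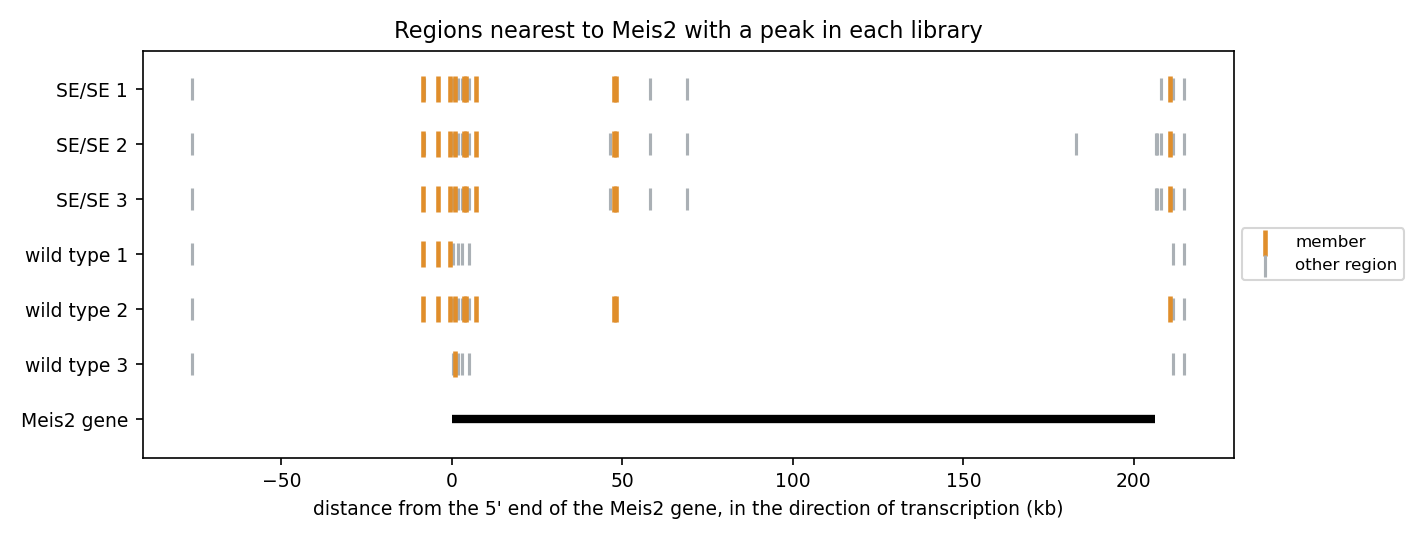
Regions assigned to Meis2 with a peak in each library, by distance in kb from the 5′ end of the gene in the direction of transcription. Orange marks are members, grey marks other regions and the black bar is the gene. All 10 members are marked in the 3 SE/SE rows and in wild type 2, 3 in wild type 1 and 1 in wild type 3.

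After Meis2 came Ahdc1 with 8 members, and 8 genes had 6 each: Zfp423, Sox2, Gse1, Gabbr2, Nfia, Agap3, Gli2 and Prdm1. Sox2 (gene ID 20674), which maintains progenitors, had 6 members among 20 regions, of which 11 were in 6 of 6 libraries. All 6 Sox2 members lay outside the gene, from 884 to 15455 bp away. The highest, on chromosome 3 at 34667916 to 34668216, had signal values of 226, 256 and 258 in SE/SE 1, 2 and 3, against 81.9 in wild type 2 and 110 in wild type 3. Its percentiles were 48.3, 50.9 and 51.6 in the SE/SE lists, 27.0 in wild type 2 and 33.0 in wild type 3, so this member, unlike most, was absent only from wild type 1. Nfia (gene ID 18027), a nuclear factor I gene of late progenitors and glia, had 6 of 15, of which 5 lay inside the gene. Its highest member, on chromosome 4 at 97672529 to 97672833, had percentiles of 45.2, 45.1 and 52.7 in the SE/SE lists, 29.3 in wild type 1 and 40.0 in wild type 2. Zfp423, a zinc-finger regulator of neural precursors, had 6 of 21, the highest at chromosome 8, 87961628 to 87962572, reaching an end of the gene. There the percentiles were 43.5, 58.9 and 61.7 in the SE/SE lists, 2.88 in wild type 1 and 8.83 in wild type 2.

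Prdm1 (gene ID 12142), a zinc-finger repressor that favours photoreceptor over bipolar fate, had 6 members among 11 regions. Of these, 5 lay inside the gene. A member on chromosome 10 at 44464627 to 44465014 had signal values of 259, 394 and 445 in SE/SE 1, 2 and 3, against 47.9 in wild type 1 and 63.0 in wild type 2. One more at 44476537 to 44477236 had 181, 331 and 531, against 52.8 in wild type 1 and 107 in wild type 2. Their percentiles lay between 43.4 and 66.4 in the SE/SE lists and between 16.1 and 32.7 in wild types 1 and 2, and wild type 3 lacked both. Another at 44527099 to 44527417 was in wild type 3 alone among the wild-type libraries, at percentile 2.17 there.

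Genes without a well-known role in the retina also stood among the first 20. Ahdc1, which encodes an AT-hook protein, had its 8 members among 16 regions, Gabbr2 6 of 12, Gse1 6 of 25 and Agap3, an Arf GTPase-activating protein gene, 6 of 12. Gli2, a transcription factor gene of the hedgehog pathway, had 6 of 21. Another 27 genes had 5 members, of which the tie rule kept Gas8, Maml3, Celf4, Atg7, Meox2, Klhl29, Zfp608, Trib2, Snd1 and Npr3. The regions of these kept genes numbered, in that order, 33, 18, 26, 29, 5, 13, 21, 9, 12 and 11. Gas8 and Atg7 had 15.2% and 17.2% of their regions among the members, which is near the 16.1% over all regions. At Meox2 (gene ID 17286), all 5 regions were members and 0 were in 6 of 6 libraries. Its highest member, on chromosome 12 at 37108842 to 37109750, had percentiles of 59.4, 64.9 and 62.5 in the SE/SE lists, 50.4 in wild type 2 and 11.2 in wild type 3. The adjoining member at 37108208 to 37108734, which holds the promoter window printed above, had 46.1, 51.0 and 56.6 in the SE/SE lists, 5.32 in wild type 1 and 19.0 in wild type 2.

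**Figure D4:**
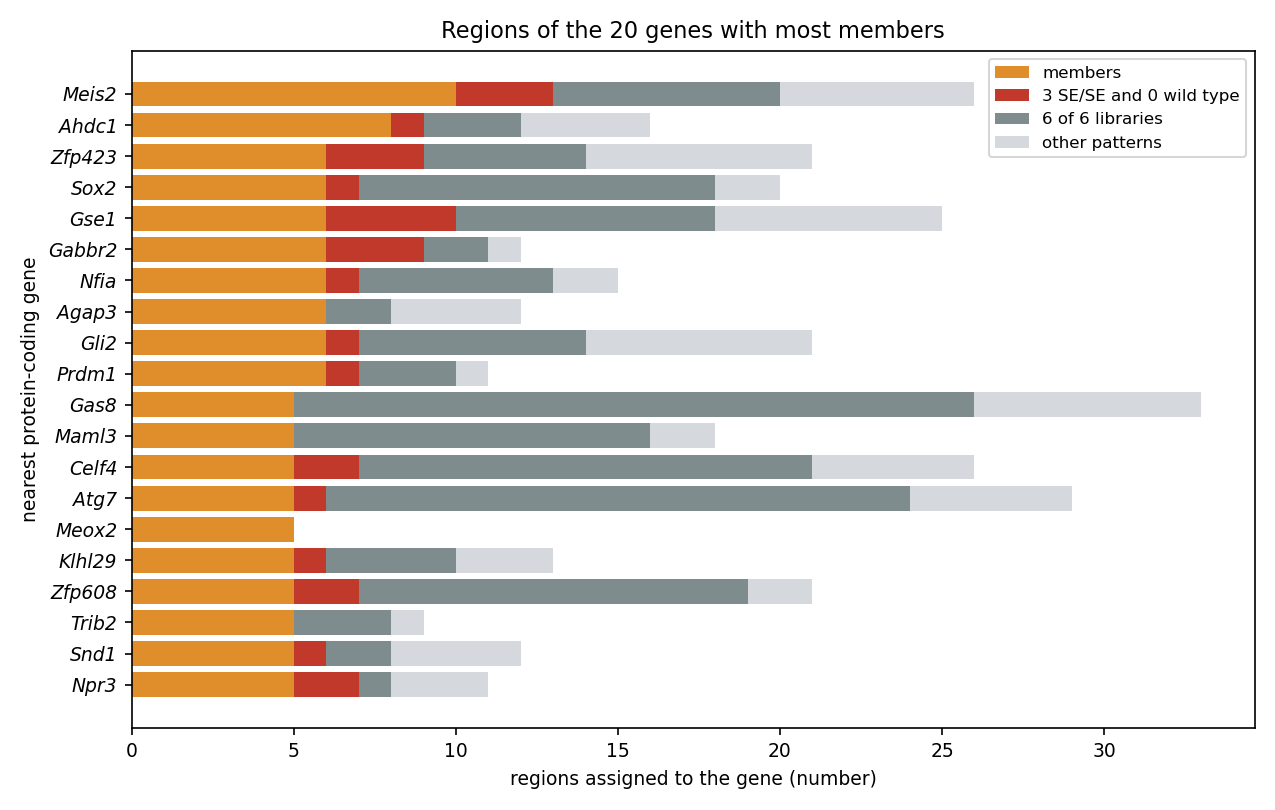
Number of regions assigned to each of the 20 genes with the most members, split by class: members, regions in 3 SE/SE and 0 wild-type libraries, regions in 6 of 6 libraries and other patterns. Meis2 has 10 members of 26 regions, Meox2 has members only, and Gas8 has the most regions, 33.

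Atoh7 itself (gene ID 53404) had 1 member among its 5 regions. It lay on chromosome 10 at 63098174 to 63098595, outside the gene and 1190 bp from its end. Its signal values were 58.7, 69.3 and 126 in SE/SE 1, 2 and 3, against 53.2 in wild type 2, and wild types 1 and 3 had no peak. The percentiles were 18.6, 21.8 and 35.5 in the SE/SE lists and 17.7 in wild type 2, so the peak ranked low in all 4 lists.

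Retinal ganglion cell genes held members at close to the share of all regions. Of 390 regions assigned to the 58 listed ganglion cell genes with a region, 71 were members, or 18.2%, against 16.1% of all regions. A member was found at 40 of the 58 genes (69.0%), against 28.7% of all genes with a region, and the listed genes had 6.72 regions each and all genes with a region 2.62. The median of the members' mean SE/SE percentile was 30.0. Foxp2 and Tbx20, transcription factor genes of ganglion cell subtypes, had 4 members each, of 13 and 8 regions, and the Iroquois homeobox gene Irx3 had 3 of 7. The highest member of Irx3, on chromosome 8 at 91865359 to 91865768, had percentiles of 49.7, 54.4 and 57.1 in the SE/SE lists, 3.46 in wild type 1 and 20.5 in wild type 2. Pou4f2, the POU-homeodomain factor downstream of Atoh7, was chosen after its values were seen. It had 1 member on chromosome 8 at 78437187 to 78437511, 540 bp from the gene, at percentiles 41.0, 42.9 and 44.5 in the SE/SE lists, 31.2 in wild type 1 and 38.2 in wild type 2. In the last of these lists it was thus among the higher-ranking members.

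Most other neural retina lists lay near that share, with the photoreceptor list above it. Members were 65 of 408 regions (15.9%) for retinal progenitor genes, 26 of 146 (17.8%) for genes of the neurogenic transition and 23 of 134 (17.2%) for amacrine and horizontal genes. They were 11 of 60 (18.3%) for bipolar and Muller glia genes and 14 of 60 (23.3%) for photoreceptor genes, where 6 of the 14 belonged to Prdm1. Onecut1, a factor of ganglion and horizontal cell precursors, had 4 of 12, among them the highest-ranking member found in wild type 3 alone. That member, on chromosome 9 at 74846751 to 74847403, had signal values of 103, 216 and 232 in SE/SE 1, 2 and 3, against 24.4 in wild type 3. The strongest joint peak that overlapped it stood at percentile 94.1 for SE/SE and 83.5 for wild type, and such a peak can reach beyond the member. Dll1, a Notch ligand gene, had 3 of 9, and Gadd45a, a gene of cells leaving the cycle, 2 of 9. Otx2 and Rorb, photoreceptor regulators, had 2 of 8 and 2 of 9. Prkca, the protein kinase gene of rod bipolar cells, had 3 of 4, the bipolar homeobox gene Vsx1 had 2 of 3 and Trpm1 had 1 of 3.

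Among horizontal and amacrine regulators, Lhx1 (gene ID 16869) had 2 regions and both were members, each present in wild types 1 and 2. The one over its promoter, on chromosome 11 at 84525448 to 84525693, had signal values of 130, 202 and 233 in SE/SE 1, 2 and 3, against 143 in wild type 1 and 97.1 in wild type 2. The other, at 84578873 to 84579172, had 117, 213 and 228 in the SE/SE lists, against 48.7 in wild type 1 and 145 in wild type 2. Signal values carry no scaling between libraries, and wild type 1 in the first and wild type 2 in the second exceeded the value of SE/SE 1. Ptf1a, which specifies both cell types, had 3 of 7 and Prox1 4 of 12.

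Genes of signalling and axon guidance gave similar shares. Members were 57 of 334 regions (17.1%) for axon guidance genes and 63 of 354 (17.8%) for genes of Notch, hedgehog, FGF, Wnt and BMP signalling. The ephrin gene Efna5 had 5 of 21, the plexin gene Plxna1 3 of 7 and the netrin receptor gene Unc5c 3 of 12. In the signalling list, Gli2 led with 6, followed by the Wnt effector Tcf7l2 with 4 of 15 and the BMP-induced Id3 with 3 of 7. Cell cycle genes had 15 of 93 (16.1%), with 3 of 6 at E2f2 and 2 of 5 at each of Rrm2 and Mki67. Housekeeping genes had 6 of 49 (12.2%), with 2 of 3 at Tuba1b, 1 of 6 at Ywhaz and 1 of 4 at Rab7.

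Lists for cells outside the neural retina ranged more widely, on fewer regions. Endothelial genes had 13 of 49 (26.5%), periocular mesenchyme and optic stalk genes 18 of 76 (23.7%), pigment epithelium and ciliary margin genes 10 of 66 (15.2%), microglia and blood genes 4 of 28 (14.3%) and lens genes 5 of 40 (12.5%). These shares rest on few regions and were not tested. In the endothelial list, 10 of the 13 genes with a region (76.9%) had a member, against 28.7% of all genes with a region, with 3.77 regions per gene, against 2.62 over all genes. The endothelial cadherin gene Cdh5 had 2 of 6, the tight junction gene Cldn5 2 of 3 and the VEGF receptor gene Kdr 2 of 9. Pax2, the paired-box gene of the optic stalk, had 3 of 8 with 0 of its regions in 6 of 6 libraries. The collagen gene Col1a2 had 3 of 6 and the LIM-homeodomain gene Lmx1b 3 of 5. The growth factor genes Bmp7 and Bmp4, of the ciliary margin list, had 2 of 9 and 2 of 7. In the lens list, Cryba4 had 1 of 13, the connexin gene Gja3 1 of 1 and Maf 1 of 4. The number of such cells in each dissected retina was not measured, and their part in the members was not tested.

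The members with the highest mean percentile over the SE/SE lists were at genes of many kinds. A region at the transcription factor gene Hmx3, on chromosome 7 at 131542033 to 131542883, came first. Its signal values were 527, 777 and 646 in SE/SE 1, 2 and 3, against 157 in wild type 2 and 116 in wild type 3. The percentiles were 66.3, 73.2 and 70.3 in the SE/SE lists, 41.2 in wild type 2 and 34.1 in wild type 3, and wild type 1 had no peak. Sox21 was next, on chromosome 14 at 118236090 to 118237293, with signal values of 418, 630 and 656 in SE/SE 1, 2 and 3, against 37.8 in wild type 1 and 113 in wild type 2. It stood at percentiles 61.4, 69.1 and 70.6 in the SE/SE lists, 11.3 in wild type 1 and 33.9 in wild type 2. Both members lay within 1 kb of a gene end, above the middle of every SE/SE list and below the middle of each wild-type list in which they were present. They were picked by their SE/SE percentiles, so their place in these lists tests nothing.

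Each of the other wild-type patterns had its own leader. For wild type 2 alone it was at Sema6d, on chromosome 2 at 124089870 to 124090774, with signal values of 415, 452 and 470 in SE/SE 1, 2 and 3, against 71.2 in wild type 2. For wild type 1 alone it lay outside Slc25a3, a mitochondrial phosphate carrier gene, with 264, 238 and 373 in the SE/SE lists, against 31.4 in wild type 1. For wild types 1 and 3 it lay at Olfm1, a secreted olfactomedin gene of neurons, with 238, 249 and 385 in the SE/SE lists, against 97.7 in wild type 1 and 33.1 in wild type 3. In all 3 the lowest SE/SE signal value exceeded the highest wild-type one, in lists that have no common scale. These members were picked by their SE/SE percentiles, so this separation follows largely from the choice and tests nothing.

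Genes of several cell types were among those nearest to the 20 highest members. Those described next were picked after their values were seen. Fli1, an ETS factor of endothelial and blood cells, had percentiles of 61.8, 68.2 and 67.8 in the SE/SE lists, 33.3 in wild type 1 and 51.4 in wild type 2. Foxc1, a forkhead gene of periocular mesenchyme, had 56.5, 64.5 and 64.4, against 23.4 in wild type 1 and 24.9 in wild type 2. Neurod4, a proneural gene of amacrine and bipolar cells, had 55.6, 63.2 and 64.0, against 14.8 in wild type 1 and 33.5 in wild type 2. All of these lacked a peak in wild type 3.

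**Figure D5:**
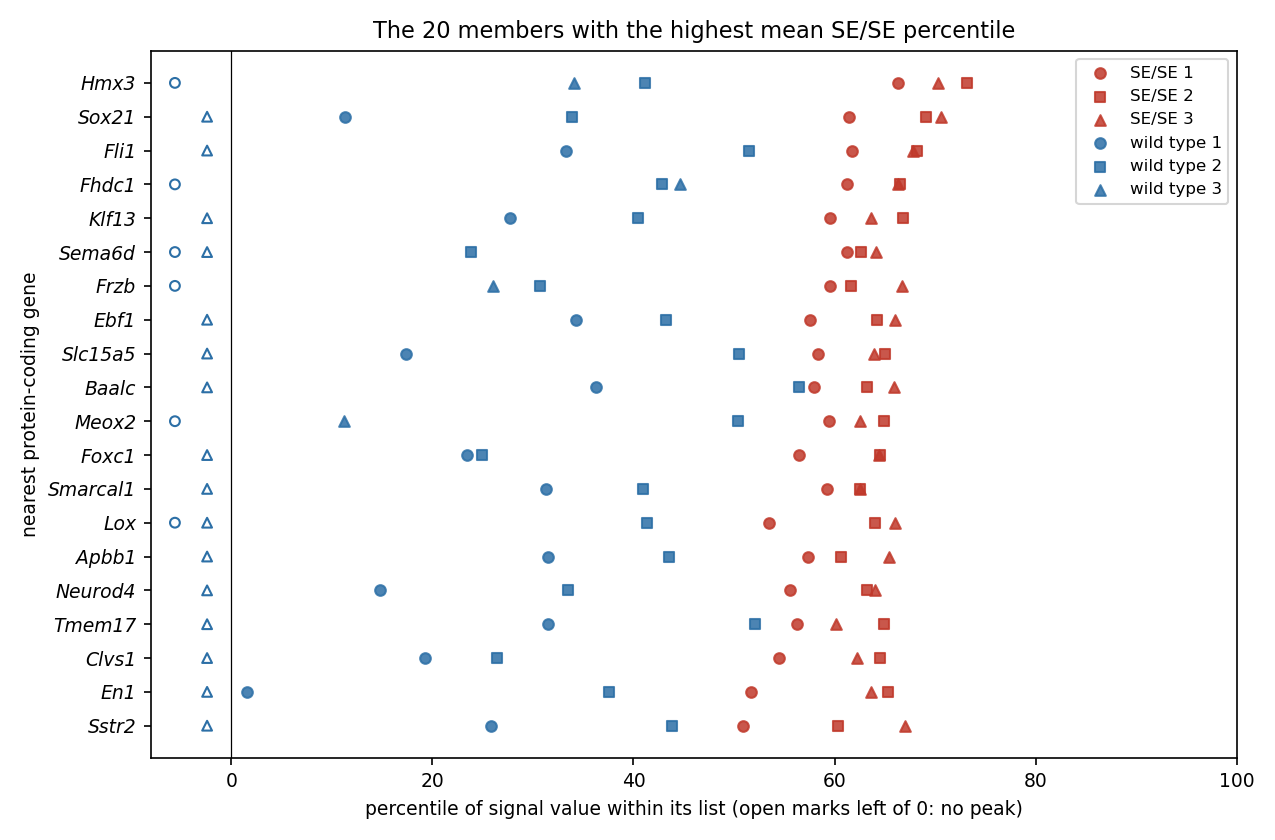
Percentile of the signal value within its own list for the 20 members with the highest mean SE/SE percentile, labelled by nearest gene. Red marks are SE/SE and blue marks wild-type libraries, and open marks left of 0 stand for libraries with no peak. The Hmx3 member stands at 66.3, 73.2 and 70.3 in the SE/SE lists, 41.2 in wild type 2 and 34.1 in wild type 3.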

How the data were processed

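The files are 8 deposited peak lists: 6 of single libraries and 2 joint ones, 1 per genotype. The submitters' processing notes name Genrich 0.5, bedtools 2.27.0, cutadapt, BWA and limma, with the builds GRCm38 and mm10, but not their roles. Trimming, duplicate removal, any shift for the Tn5 cut and how the joint lists were made are not given in the sources used here. For every peak the authors deposited a score, a signal value and −log10 p-values. No deposited signal value was under 20. Dividing it by the peak width and multiplying by 1000 gave the deposited score to within 1 in the 6 library lists, up to a cap of 1000. The signal value is thus tied to width, and the sources used here give no scaling between libraries, so peaks were ranked by it inside 1 list only. Library depth is unknown, and list length is the only measure related to it. A region with a weak peak can be missing from a short or shallow list for that reason alone. Whether this holds for the members was not tested.

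Peaks sharing 1 bp or more were merged, and any overlap of a library's peak counted as presence of the region. Where a library had several peaks in a region, the one with the highest signal value gave the percentile, with ties at their mean rank. Regions were placed by the RefSeq protein-coding genes of GRCm38.p6, whose table gives ends without exons, as within 1 kb of an end, inside a gene, or outside, and assigned to the nearest end within 100 kb. Positions are GRCm38 and count from 1. The rule and the lists were chosen with earlier results of these data known. Named genes were Atoh7, the 20 genes with most members, up to 3 genes of each of the 15 lists (448 entries, all matched) and the gene of the highest-ranking member of each wild-type pattern. Ties went to members in 2 wild-type libraries, then to the mean SE/SE percentile. Some genes taken by this rule are not described. Sequences at the members' centres were not used here, and RefSeq promoter windows of 300 bp, searched for 17 motifs, took their place. No test was run, since the rule used all 6 libraries and regions are not replicates. Alternatives covered the overlap, the peak width, a stricter signal value, equal list lengths, the gene distance, the gene set, start sites and each library left out. Python 3.11.15 with numpy 2.4.6, pandas 2.3.3, scipy 1.17.1 and matplotlib 3.10.9 was used, and the merging and selection were tested on simulated data.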

Additional observations from a re-analysis of the deposited data

How the results depend on the processing

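The number of members changed most at equal list length and with wild type 2 or wild type 3 left out. Of 89 alternative values, 58 stayed within 1.5 times the count or within the stated spread, and 31 moved. With lists cut to equal length there were 2186 members, of which wild type 1 lacked 1020, wild type 2 lacked 646 and wild type 3 lacked 1309. Leaving out 1 library gave 4115 to 8172 members, the lowest without wild type 2 and 4430 without wild type 3. With a wild-type library left out, the rule became a peak in exactly 1 of the other wild-type libraries. Those counts therefore follow from the wild-type patterns given above and are no separate support. The share within 1 kb of a gene end was 14.0% at equal list length, 15.2% with peaks trimmed to 200 bp, 15.2% with signal values of 50 or more, 19.8% with all annotated genes, 18.8% within 2 kb, 14.2% by start sites (chosen after seeing the data) and 12.6 to 13.8% with 1 library left out. The median SE/SE percentile was 40.8 with signal values of 50 or more and 43.7 at equal list length. The rarity of the opposite pattern also depended on these choices, with 459 regions at equal list length and 938 with trimmed peaks. Of the 20 genes with the most members, 3 stayed among the first 20 with signal values of 50 or more, 5 at equal list length, 11 when a region inside a gene was assigned to that gene, and 5 to 19 with 1 library left out, the lowest without wild type 3, so the ranking of genes is unstable. No paired analysis was possible because no result comes from a test and replicate numbers do not pair animals across genotypes. Unknown depth limits what the lack of a peak can show.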

Other observations

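A microRNA hairpin lay inside a member in 2 cases, Mir7687 and Gm51288, both in wild types 1 and 2 among the wild-type libraries. Mir7687, on chromosome 8 at 120538696 to 120538754, lies inside Gse1, and its member had a mean SE/SE percentile of 52.0. By nearest gene end this member was assigned to Gins2, so it is not counted among the Gse1 members above. Members at genes that had no region in 6 of 6 libraries numbered 1084, or 14.8% of all members. The share of all regions at such genes is not given here, so this count describes nothing particular to members.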
